A study of Mus musculus with 8 samples.

Results

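The cadherins and protocadherins were examined in Thy1+ testis cells of wild type and Glis3KO2 mice. Members were chosen by name from the arrays' RefSeq accessions: every gene called Cdh with a number, other than the endothelial Cdh5, and every gene whose name starts with Pcdh. This gave 64 genes with 98 probes, out of 19096 named genes and 41174 probes on the array. The gene table lists 92 such genes in the mouse, and the other 28, mostly single exons of the Pcdha and Pcdhg clusters, had no probe matched by accession and are not analysed here. The family itself was selected on the signals of these same arrays, because Pcdh7 had been seen higher and Cdh1 lower in the knockout. The differences between genotypes given here for members are therefore descriptions, without p-values.

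There were 4 arrays of each genotype. The WT group was wild type C57BL/6 pups at postnatal day 4, and the Glis3KO2 group was pups of the same strain and age carrying the allele so named (Glis3KO in the sample titles). Neither group was treated. Nothing in the labels describes the deleted part of Glis3, or says whether samples came from single animals or from pools. The study's design text names 3 testes per genotype where 4 samples of each are listed, so samples of a genotype may share a source, and each SD and SE with n = 4 measures the spread between samples. The cells are labelled as spermatogonial progenitors of the testis, isolated by Thy1, a surface protein.

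Cadherins are adhesion proteins of the cell surface whose extracellular repeats bind calcium and, in the classical types, pair with the same cadherin on the next cell. Inside the cell the classical cadherins hold catenins, which link them to actin. Protocadherins have related repeats but other cytoplasmic tails; the non-clustered ones are separate genes, while the Pcdha, Pcdhb and Pcdhg genes lie in tandem clusters, are best known for giving neurons a surface identity, and in the Pcdha and Pcdhg clusters join a variable exon to shared constant exons. In the mouse testis E-cadherin (Cdh1) is a surface marker of undifferentiated spermatogonia, and N-cadherin (Cdh2) sits at junctions of Sertoli and germ cells.

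Values are log2 signals relative to the 75th percentile of their own array, so 0 marks a spot at that percentile and 1 unit is a doubling. A probe was kept where 4 or more of the 8 arrays had it well above background, as called by the scanner software. Signal at the 75th percentile ranged from 243 to 533 units, and 86.0% to 90.3% of spots were well above background. WT replicates 3 and 4 stood apart on the first principal component (69.1 and 60.04, with the other 6 arrays at or below 3.85), and WT replicate 1 on the second (80.8, the others at or below 3.20). The Glis3 probe read -1.09, -1.01, 0.57 and 0.60 in WT and -1.98, -2.18, -1.18 and -1.32 in Glis3KO2, so the genotypes did not overlap at this probe. The difference of -1.43 (SE 0.45) was not called over all genes (limma adjusted p = 0.697), and the labels do not tell whether this probe matches the deleted stretch. All 12 germ cell markers of a list were well above background on all 8 arrays, and the markers of interstitial stroma, peritubular, Sertoli and Leydig cells were detected beside them. Because these are bulk samples, fewer cells of a type and less RNA per cell cannot be told apart in any value that follows.

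Of the 64 members, 56 had a kept probe and 43 were well above background on all 8 arrays through the probe that stands for them. Every kept member was well above background on at least 1 array of each genotype. Among the 56, 30 had a higher and 26 a lower mean in Glis3KO2, with a median difference of 0.04, where 40.8% of all 17513 genes had a higher mean and the median over all genes was -0.08. Over the whole array limma called 0% of genes at an adjusted p under 0.05, and 6.90% had an unadjusted p under 0.05. Pcdh7 was the 1 member with every Glis3KO2 array above every WT array, a state found for 0.902% of genes, and 0 members had the reverse, found for 2.60%. A higher mean in 4 of 4 numbered pairs was seen for 8 members (7.34% of genes) and a lower one for 8 (13.5%). Since the family was proposed from this contrast, nothing is read from these shares.

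**Figure D1:**
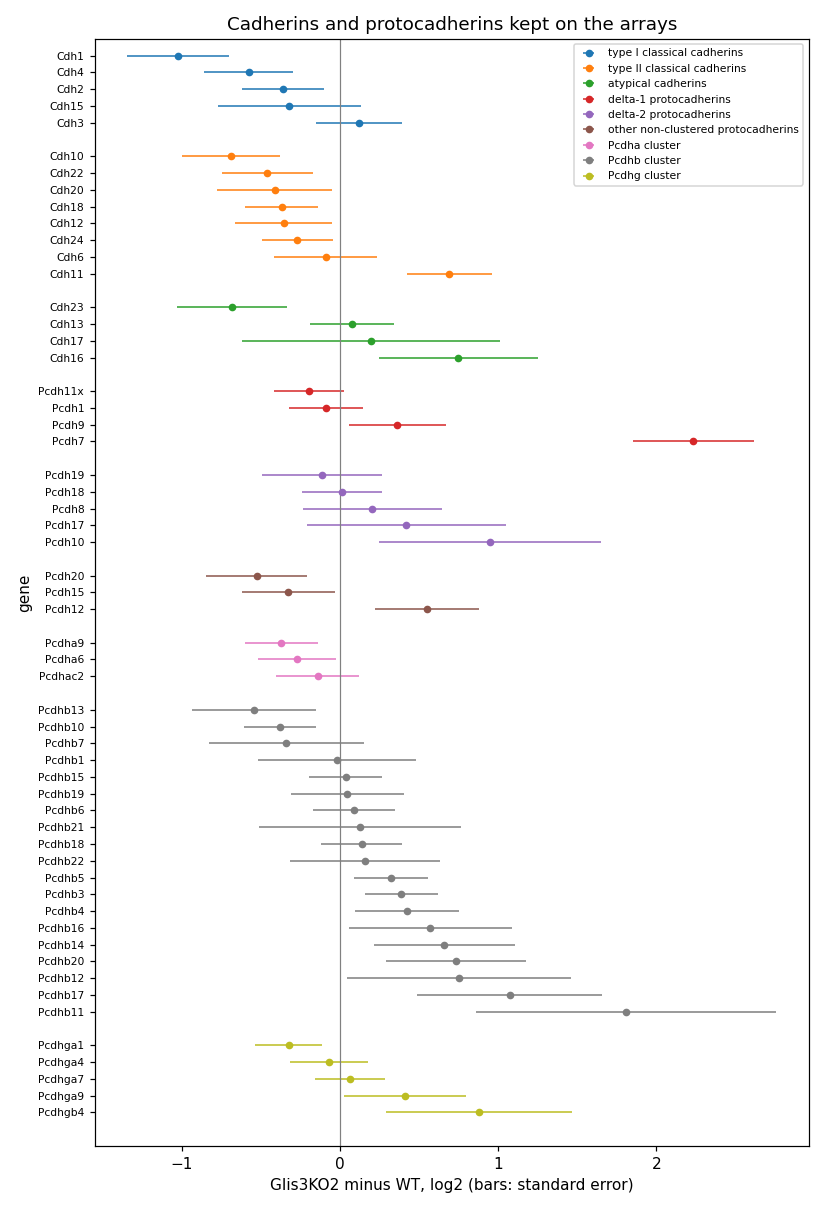
Difference between genotypes (Glis3KO2 minus WT, log2, horizontal axis) for each of the 56 kept members (rows), with bars of 1 standard error and colours for subfamilies. Pcdh7 lies farthest to the right at 2.23 and Cdh1 farthest to the left at -1.02, while most classical cadherins lie left of 0 and most Pcdhb genes right of it.

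Pcdh7 is a delta-1 protocadherin, a single gene on chromosome 5 (GRCm38.p6, chr5:57716145-58133236). Its brightest probe, A_51_P260740, stands for the gene. It read -1.92, -0.86, -2.33 and -2.34 in WT replicates 1 to 4 and 0.19, 1.04, 0.47 and -0.21 in Glis3KO2 replicates 1 to 4. The lowest Glis3KO2 array was above the highest WT array, and in both genotypes replicate 2 was the highest. Mean values were -1.86 ± 0.69 for WT and 0.37 ± 0.52 for Glis3KO2 (SD, n = 4 each), a difference of 2.23 (SE 0.38) or 4.70-fold. On the unscaled intensity the same spots ran from 48.4 to 293 units in WT and from 295 to 940 in Glis3KO2, so the separation of 292.7 from 295.5 between the nearest arrays is narrow before arrays are put on a common scale.

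The difference at this probe was similar in all 4 numbered pairs (2.11, 1.90, 2.80 and 2.13) and on both slides (2.45 and 2.01). It stayed between 2.01 and 2.57 when any 1 array was left out. The groups were apart with all arrays in, so leaving arrays out cannot make them overlap. Without WT replicates 3 and 4 together the difference was 1.76. With normexp background correction it was 1.52, both with the 75th percentile and with quantile normalization, and the groups stayed apart.

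The other probes of Pcdh7, which carry other RefSeq transcripts of the gene, gave smaller differences. Probe A_52_P130912 read -4.51, -2.999, -3.55 and -3.86 in WT and -3.41, -2.27, -2.35 and -3.49 in Glis3KO2. Its groups overlapped, and the difference was 0.85 (SE 0.41). Probe A_52_P497715 read -1.49, -1.43, -2.96 and -3.04 in WT, against -1.96, -0.68, -1.51 and -2.48 in Glis3KO2. Here WT replicates 1 and 2 were as high as the knockout arrays, the groups overlapped widely, and the difference was 0.58 (SE 0.50). That last value turned to -0.20 without WT replicates 3 and 4, and with normexp and the 75th percentile the values of these probes were -0.22 and -0.06. With normexp and quantile normalization they were 0.30 and 0.21. Averaged over its 3 probes, Pcdh7 differed by 1.22 (SE 0.38), and the averages overlapped between groups. The size of the Pcdh7 difference therefore depends on the probe, and the sequence of the probes is not given in the files used here.

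**Figure D2:**
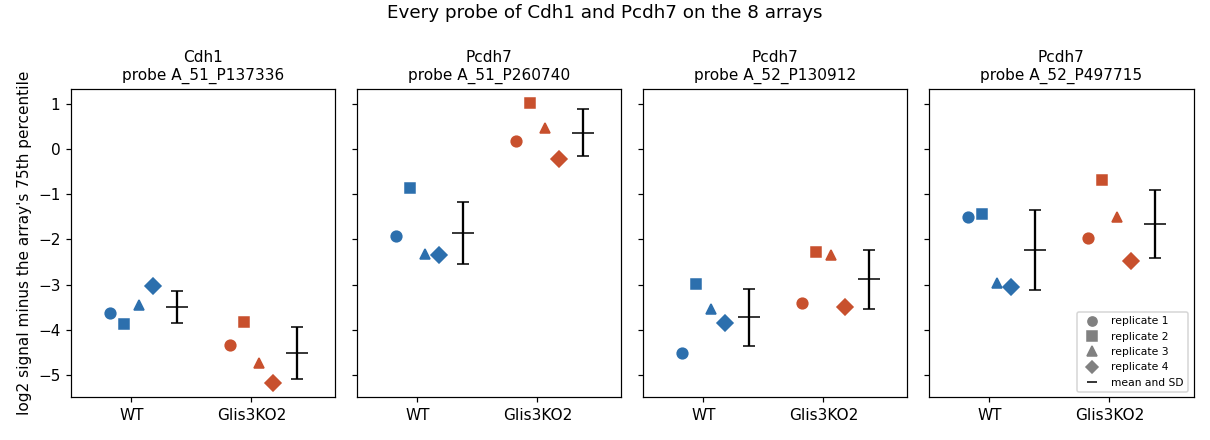
Log2 signal relative to the 75th percentile of the array (vertical axis) for the single probe of Cdh1 and the 3 probes of Pcdh7, by genotype; each point is 1 array, its shape the replicate number, and the bar is the mean with SD (n = 4). The groups are separate at probe A_51_P260740 and overlap at the other Pcdh7 probes, and for Cdh1 they overlap only through replicate 2 of each genotype.

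Glis3 is a transcription factor of the Krüppel-like zinc finger class, and GLIS proteins are known to bind a site built around a run of G. The letters TGGGGGGT, the inner part of that site, were searched on both strands of the 250 bases before the annotated starts in a RefSeq promoter table (GRCm38.p6), which holds 24 windows of 21 of the members. They were in 0 of these 24 windows and in 1.36% of all 32851 windows. A run GGGGGG, which TGGGGGGT contains, was in 9 of the 24 (37.5%) and in 16.2% of all. The windows with it were those of Cdh6, Cdh7, Cdh10, Cdh15, Cdh22, Cdh26, Pcdh7 and Pcdh19. Of these genes, Cdh6 (-0.09), Cdh10 (-0.69), Cdh15 (-0.32), Cdh22 (-0.46) and Pcdh19 (-0.11) had lower means in Glis3KO2 at the probe that stands for them. Leaving out 1 array could turn the sign for Cdh6, Cdh15 and Pcdh19. The further probes of Cdh6 gave 0.05 and -0.10, and that of Pcdh19 gave 0.90. Cdh7 and Cdh26 had no kept probe. The run in the Pcdh7 window is shown in capitals (chr5:57717923-57717952, + strand): gagagtgagagaGGGGGGGaaaggggaaag. It has A on both sides, where the searched letters TGGGGGGT have T. This run starts 146 bases before a transcript start that itself lies 1936 bases inside the annotated gene. The letters CAGGTG, an E-box of SNAI and ZEB repressors, were searched in the same way. They were in 3 of the 24 windows (12.5%), those of Cdh7 and Pcdh15, and in 17.2% of all. No window of Cdh1 was among the 24, so its promoter was not searched for any of these letters. A match of letters is no evidence of binding, and its absence in a window of this length says only that the letters are not in it.

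Cdh1 encodes E-cadherin, a type I classical cadherin that holds epithelial cells together, and lies on chromosome 8 (chr8:106603350-106670247). It had a single probe, which read -3.63, -3.88, -3.45 and -3.04 in WT and -4.34, -3.83, -4.74 and -5.19 in Glis3KO2. All WT arrays were above all Glis3KO2 arrays but for replicate 2, where the knockout was higher by 0.05. The means were -3.50 ± 0.35 and -4.52 ± 0.58 (SD, n = 4 each), a difference of -1.02 (SE 0.32) or 2.03-fold. By pair the difference was -0.70, 0.05, -1.29 and -2.15, so replicates 3 and 4 carried most of it, and by slide it was -0.99 and -1.05.

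The Cdh1 spot was dim. Its processed intensity was 28.6, 36.1, 22.2 and 33.01 units in WT and 18.5, 32.3, 9.41 and 9.33 in Glis3KO2, while the dimmest spot called well above background had between 7.52 and 12.7 units. It was well above background on 4 of 4 WT and 3 of 4 Glis3KO2 arrays, with Glis3KO2 replicate 4 below the call. Leaving out any 1 array kept the difference between -1.25 and -0.80, and without WT replicate 2 or without Glis3KO2 replicate 2 the groups no longer overlapped. It was -0.77 without WT replicates 3 and 4. With normexp it was -0.88 under the 75th percentile and shrank to -0.22 under quantile normalization. The 3 family probes never called above background also had lower means in the knockout, at -0.48 (Cdh7), -0.62 (Cdh19) and -1.18 (Cdh8). The part of signal near the floor in the Cdh1 value was not tested.

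Cdh3, which encodes P-cadherin, is the next cadherin gene on chromosome 8, ending 46439 bases before Cdh1 with 3 genes listed between. It read -2.27, -1.21, -1.46 and -1.66 in WT and -1.79, -1.37, -1.67 and -1.28 in Glis3KO2. The groups overlapped fully and the difference was 0.12 (SE 0.27). The difference between Cdh1 and Cdh3 in this respect was not tested.

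The other type I cadherins had lower means in the knockout with overlapping groups, which made 4 of 5 lower in this subfamily. Cdh2, or N-cadherin, was brightest relative to its array in WT replicate 3 and read -0.08, -0.48, 0.30 and -0.09 in WT and -0.88, -0.56, -0.23 and -0.12 in Glis3KO2. It was lower in 4 of 4 pairs, by 0.80 in pair 1 but only by 0.03 in pair 4, and the mean difference was -0.36 (SE 0.26). Cdh4, or R-cadherin, read -1.65, -2.74, -2.56 and -2.08 in WT and -3.17, -2.63, -2.89 and -2.64 in Glis3KO2. Its difference of -0.58 (SE 0.28) was largest in pair 1 (-1.52) and was -0.37 without WT replicate 1. The other probes of Cdh4 gave -0.15 (SE 0.40) and -1.09 (SE 0.46). Cdh15, the M-cadherin of muscle precursors, differed by -0.32 (SE 0.45), within a spread between replicates of 0.80 in WT and 0.70 in Glis3KO2.

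Type II cadherins are classical cadherins of neurons and mesenchyme with a different adhesive pocket. Of 11 on the array 8 were kept, and 7 of these had a lower mean, with a range of -0.69 to 0.69. Cdh10, a neuronal type, had the largest negative value and read -5.07, -4.50, -4.19 and -4.38 in WT and -4.81, -5.69, -4.73 and -5.65 in Glis3KO2. It was near the detection limit, above the background call on 3 WT arrays but on just 1 Glis3KO2 array, and its difference of -0.69 (SE 0.31) had WT replicate 1 among the knockout values. Cdh22 differed by -0.46 (SE 0.29) and was lower in 4 of 4 pairs, as were Cdh12 at -0.35 (SE 0.31) and Cdh18 at -0.37 (SE 0.23; -0.24 without Glis3KO2 replicate 2). The second probe of Cdh18 read 0.03 (SE 0.31). Cdh20 differed by -0.41 (SE 0.36) and Cdh24 by -0.27 (SE 0.22). Cdh6, or K-cadherin, differed by -0.09 (SE 0.33), and its other probes by 0.05 (SE 0.71) and -0.10 (SE 1.06).

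Cdh11 went the other way. It encodes OB-cadherin, a cadherin of osteoblasts and fibroblast-like mesenchyme. Its brightest probe read 2.77, 3.03, 2.07 and 2.10 in WT and 3.02, 3.12, 3.36 and 3.23 in Glis3KO2. Only WT replicate 2 reached the knockout range, just above Glis3KO2 replicate 1, and WT replicates 3 and 4 were the lowest. The difference was 0.69 (SE 0.27), higher in 4 of 4 pairs (0.25, 0.09, 1.29 and 1.13), and 0.96 (SE 0.47) and 0.82 (SE 0.50) at its other probes. At those probes the arrays again fell into high and low WT, with 1.11 and 1.92 in WT replicates 1 and 2 against -0.19 and -0.01 in replicates 3 and 4 at probe A_51_P506204. Without WT replicates 3 and 4 the difference was 0.28 at the brightest probe and 0.16 and 0.01 at the others. At A_52_P437795 it went from 0.82 to 0.53 without WT replicate 4 alone and to 1.28 without WT replicate 2.

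Together the Cdh genes had a lower mean in 12 of 17 kept members, against 59.2% of all genes. The count was 11 without WT replicates 3 and 4, where 53.8% of genes were lower.

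The atypical cadherins differ from the classical ones in their tail or in the number of repeats. Cdh23 forms the tip links of inner ear hair cells together with Pcdh15. It read -2.13, -2.01, -1.02 and -1.62 in WT and -2.57, -2.99, -2.34 and -1.61 in Glis3KO2, and only Glis3KO2 replicate 4 lay within the WT range. The difference was -0.68 (SE 0.35) at this probe and -1.19 (SE 0.71) at the second. Its partner Pcdh15 differed by -0.33 (SE 0.30). Cdh16, a cadherin of kidney tubules and related duct epithelium, read -0.48, -2.21, -2.24 and -2.37 in WT and -0.31, -0.79, -0.998 and -2.20 in Glis3KO2. It was higher in 4 of 4 pairs with WT replicate 1 well above the other WT arrays, a difference of 0.75 (SE 0.50). Cdh13, which is held to the membrane by a lipid anchor, differed by 0.08 (SE 0.26). Cdh17 was well above background on 2 arrays of each genotype and differed by 0.20 (SE 0.82).

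Among the non-clustered protocadherins other than Pcdh7, values lay between -0.53 (Pcdh20) and 0.95 (Pcdh10). The other delta-1 genes did not share the size of the Pcdh7 value: Pcdh9 differed by 0.36 (SE 0.31), Pcdh1 by -0.09 (SE 0.23) and Pcdh11x by -0.20 (SE 0.22). Pcdh9 had higher means at its other probes as well, 0.95 (SE 0.82) and 0.62 (SE 0.34). Pcdh10, a delta-2 protocadherin, read -3.69, -3.35, -3.28 and -3.35 in WT and -3.81, -0.33, -1.77 and -3.96 in Glis3KO2. Here the WT arrays lay close together, and Glis3KO2 replicates 2 and 3 were above all of them while replicates 1 and 4 were below all of them. Its difference of 0.95 (SE 0.70) was 0.24 without Glis3KO2 replicate 2 and 1.45 without Glis3KO2 replicate 4.

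The remaining delta-2 genes differed by 0.42 (Pcdh17, SE 0.63), 0.20 (Pcdh8, SE 0.44), 0.01 (Pcdh18, SE 0.25) and -0.11 (Pcdh19, SE 0.38). Pcdh19, an X-linked gene known from inherited epilepsy, had a second probe at 0.90 (SE 0.60). At that probe Glis3KO2 replicates 2 and 4 read -0.40 and -1.71 and the other 6 arrays between -3.46 and -2.79. Pcdh12, a protocadherin of endothelial cells and placenta, read -2.15, -2.42, -2.19 and -2.98 in WT and -1.15, -2.33, -1.68 and -2.39 in Glis3KO2. It was higher in 4 of 4 pairs at 0.55 (SE 0.33), and 0.30 without Glis3KO2 replicate 1, but the second probe gave -0.26 (SE 0.44).

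The clustered protocadherins made up 31 of the 64 members, all on chromosome 18. Their variable exons are close copies of each other, and Pcdha and Pcdhg transcripts end in shared exons, so a probe named for 1 gene of a cluster may read others too and the gene names are uncertain. Kept were 3 of 4 Pcdha, 19 of 22 Pcdhb and 5 of 5 Pcdhg genes. All 3 Pcdha genes had lower means, from -0.37 (Pcdha9, SE 0.23) to -0.14 (Pcdhac2, SE 0.26). Of the Pcdhg genes 3 had higher and 2 lower means, from -0.32 (Pcdhga1, SE 0.21) to 0.88 (Pcdhgb4, SE 0.59). Pcdhga9 had 4 probes, all with higher means, between 0.17 and 0.43. Pcdhga4 differed by -0.07 (SE 0.24) at the probe that stands for it and by 0.77 (SE 0.49) at the other.

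The Pcdhb genes had a higher mean in 15 of 19 cases, with a median difference of 0.16 (40.8% of all genes were higher), and 0 of them had groups without overlap (3.50% of all genes). This count changed with WT replicates 3 and 4: without them it was 8 of 19, with 46.2% of all genes higher. It was also 6 of 19 with normexp and the 75th percentile, a setting that moved the median of all genes to -0.22 and left 34.01% of genes higher, and 15 with normexp and quantile normalization.

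Pcdhb11 had the largest Pcdhb difference, 1.81 (SE 0.95). It read 0.001, -2.37, -4.46 and -5.16 in WT and -2.03, -0.79, -0.83 and -1.10 in Glis3KO2. WT replicate 1 was the highest of all 8 arrays and WT replicates 3 and 4 the lowest, a range in WT far wider than in the knockout. The difference was 2.81 without WT replicate 1, 1.09 without WT replicate 4 and -0.0009 without WT replicates 3 and 4. Pcdhb17 read -0.01, -0.25, -2.01 and -1.71 in WT and 0.80, 0.85, -0.04 and -1.29 in Glis3KO2. Again WT replicates 3 and 4 were lowest, the difference was 1.07 (SE 0.58), and it was 0.21 without them. Its second probe gave 1.82 (SE 0.60), which was 0.64 without those arrays and 0.77 with normexp and the 75th percentile. Pcdhb16 differed by 0.57 (SE 0.52) and at its second probe by -0.21 (SE 0.63). The first value ran from 0.26 without WT replicate 4 to 0.93 without WT replicate 2, and was -0.29 without WT replicates 3 and 4. Pcdhb15 differed by 0.04 (SE 0.23) and -0.62 (SE 0.54) at its probes.

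The 8 members without a kept probe were Cdh7, Cdh8, Cdh19, Cdh26, Pcdha4, Pcdhb2, Pcdhb8 and Pcdhb9. Pcdhb8 passed the background call on 3 of 4 WT arrays and on 0 of 4 Glis3KO2 arrays. It read -3.98, -4.53, -4.22 and -4.77 in WT and -4.86, -5.54, -6.04 and -5.33 in Glis3KO2. Every WT array was above every Glis3KO2 array, as at 2.23% of all kept probes, a set without this probe. Its WT mean was 1.66-fold above a knockout level set, array by array, at the dimmest signal that passed the call, or at the probe itself where brighter. WT replicate 4, below the call, entered that mean as measured, so the ratio is not a strict lower limit. For Pcdha4, called on 1 WT array and no knockout array, the same ratio was 1.06-fold and rests mostly on uncalled WT signals. Cdh26 was called on 1 WT array, and Pcdhb2 and Pcdhb9 on 1 Glis3KO2 array each, with no such ratio above 1. The Cdh8 probe A_51_P290886, called on 0 arrays, read -5.33, -5.79, -4.70 and -4.63 in WT. In Glis3KO2 it read -6.16, -6.51, -6.56 and -5.94, so a probe never called also had groups without overlap.

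Several probes of 1 gene often disagreed. Of 17 members with more than 1 kept probe, 7 had probes of both signs (41.2%), and over all genes it was 2485 of 6362 (39.1%). Over the 81 kept probes of the family, groups did not overlap at 1 (3.29% of all kept probes), which had its Glis3KO2 arrays all above WT (1.06%), and 0 had them all below (2.23%). Nothing is read from these shares either. Leaving out 1 array turned the sign of the difference for 21 of the 56 kept members, all with a size of 0.42 or less, among them Cdh6 (0.10 without Glis3KO2 replicate 2), Pcdh18 (-0.16 without WT replicate 4), Pcdh19 (0.16 without WT replicate 1), Pcdhb15 (-0.11 without WT replicate 4) and Pcdhga4 (0.07 without Glis3KO2 replicate 2).

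**Figure D3:**
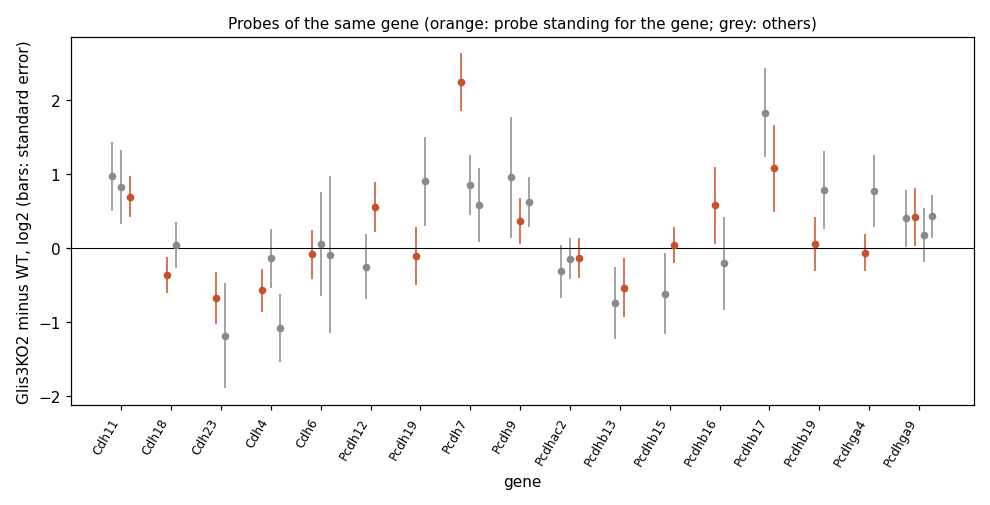
Difference between genotypes (Glis3KO2 minus WT, log2, vertical axis) for every kept probe of the 17 members with more than 1 (horizontal axis), with bars of 1 standard error; orange marks the probe that stands for the gene. The 3 Cdh11 probes lie together above 0, the Pcdh7 probes spread from 0.58 to 2.23, and Pcdh12, Pcdh19 and Pcdhga4 have probes on both sides of 0.

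The proteins that cadherins work with were read from lists of genes that are not members. Catenins and linker proteins of the cadherin complex had 5 higher and 7 lower means among 12, a median of -0.02, and 0 genes called (0 also at an unadjusted p under 0.05, limma). Ctnnb1, or beta-catenin, had means of 6.16 ± 0.07 (WT) and 6.25 ± 0.47 (Glis3KO2; SD, n = 4 each), a difference of 0.10 (SE 0.26, limma adjusted p = 0.931). Ctnna1, the alpha-catenin that reaches actin, differed by 0.12 (SE 0.21, limma adjusted p = 0.892). Ctnnd1, or p120-catenin, which holds cadherins at the surface, differed by 0.12 (SE 0.23, limma adjusted p = 0.894). Jup, or plakoglobin, differed by -0.06 (SE 0.25, limma adjusted p = 0.955). The sign of Ctnnb1 turned without Glis3KO2 replicate 2 (-0.05) and that of Jup without Glis3KO2 replicate 1 (0.13).

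A list drawn up as regulators of Cdh1 transcription had 8 higher and 8 lower means among 16, with a median of 0.02. Limma called 0 of them after adjustment (1 of 16 before adjustment, p under 0.05, against 6.90% of all genes). The list also holds the splicing regulators Esrp1 (-0.64) and Esrp2 (0.30), and whether its genes act on Cdh1 in these cells was not tested. Of the repressors that bind E-boxes in the Cdh1 promoter, Snai2 differed by 0.53 (SE 0.34, limma adjusted p = 0.702), Zeb1 by 0.24 (SE 0.29, limma adjusted p = 0.828) and Zeb2 by 0.25 (SE 0.36, limma adjusted p = 0.852). Snai1 was well above background on 1 of 4 WT and 3 of 4 Glis3KO2 arrays and differed by 0.55 (SE 0.48, limma adjusted p = 0.765). Other genes of the list had means in both directions. Snai3 (-0.33), Klf8 (-0.63), Tcf3 (-0.09) and Twist1 (-0.05) had lower means, and Twist2 (0.99) and Tcf4 (0.70) higher ones. Without WT replicates 3 and 4 Zeb1 and Zeb2 were at -0.19 and -0.39, Snai1 at 1.16 and Snai2 at 0.24. Snai2 was also at 0.24 without Glis3KO2 replicate 2, Zeb2 was at -0.05 without WT replicate 4 alone, and Snai1 was at -0.66 under normexp scaled to the 75th percentile. Foxc2, a forkhead factor of mesenchyme, was lower on all knockout arrays than on any WT array. Its means were 0.71 ± 0.80 (WT) and -0.95 ± 0.53 (Glis3KO2; SD, n = 4 each). The difference was -1.66 (SE 0.42, limma adjusted p = 0.697). It shrank to -1.02 when WT replicates 3 and 4 were left out.

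Other genes of the cadherin superfamily (Fat, Dchs and Celsr genes, desmosomal cadherins, calsyntenins) had 7 higher and 13 lower means among 20, a median of -0.07 and 0 called by limma after adjustment (3 of 20 before adjustment, p under 0.05, against 6.90% of all genes). The 3, named after their values were seen, were the calsyntenin Clstn2 at 1.93 (SE 0.77), the desmosomal cadherin Dsc1 at -0.78 (SE 0.31) and Cdhr1, a cadherin of photoreceptors. Cdhr1 was called well above background on 4 WT and 0 Glis3KO2 arrays. It was thus kept through WT alone, with knockout signals below the call, and nothing is read from its place among the 3. Clstn2 and Dsc1 had a limma adjusted p of 0.697. Groups without overlap, both lower in the knockout (2.60% of all genes), were seen for the desmosomal cadherins Dsc2 and Dsg1b, at -0.47 (SE 0.22) and -0.50 (SE 0.23), with a limma adjusted p of 0.697 each. Nectins and related molecules, adhesion proteins that act beside cadherins, had 4 higher and 4 lower means among 8 and a median of -0.01. Epithelial junction genes had 8 higher and 6 lower means among 14 and a median of 0.13. In that list Epcam, an adhesion molecule that epithelia and early spermatogonia share with Cdh1, differed by 0.51 (SE 0.42, limma adjusted p = 0.754), opposite in sign to Cdh1. It was 0.20 without WT replicate 1, 0.31 without WT replicate 2, 0.78 without WT replicate 3 and 1.26 without WT replicates 3 and 4. In both of these lists 0 genes were called by limma, adjusted or at an unadjusted p under 0.05.

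Markers of other cells moved over the same arrays as several members. The 10 stroma markers had higher means in 10 of 10 cases, and their summed linear signal, in multiples of the 75th percentile, ranged from 35.2 to 159 in WT and from 85.7 to 330 in Glis3KO2. Their centred mean was lowest in WT replicates 3 and 4 (-1.15 each) and highest in Glis3KO2 replicate 2 (1.96), the array on which Pcdh7 and Pcdh10 read highest. The 8 peritubular and smooth muscle markers were also all higher, with sums of 32.6 to 102 in WT and 52.5 to 167 in Glis3KO2. Of the 12 germ cell markers 11 had lower means, with sums of 26.3 to 103 in WT and 26.2 to 43.3 in Glis3KO2, and their centred mean stood at 0.89 (WT replicate 3) and 1.21 (WT replicate 4), with the remaining arrays between -0.64 and -0.11. Of these stroma, peritubular and germ cell markers, Mfap5 (called on 1 WT and 4 Glis3KO2 arrays) and Dpt (1 and 3) were dim, and 0 were below the call on all arrays of a genotype. WT replicate 4 had the highest germ cell mean and the highest Cdh1 value, but among the Glis3KO2 arrays Cdh1 was highest on replicate 2, where the germ cell mean was lowest.

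Stroma markers did not order the arrays as Pcdh7 did in every case. WT replicate 2 had a stroma mean of 0.90, above Glis3KO2 replicates 1, 3 and 4 (0.005, 0.14 and 0.01). Its Pcdh7 value of -0.86 at probe A_51_P260740 was below theirs. At probe A_52_P497715 its value of -1.43 was above theirs (-1.96, -1.51 and -2.48), as the stroma mean was. At probe A_52_P130912 its value of -2.999 was above replicates 1 and 4 (-3.41 and -3.49) and below replicate 3 (-2.35). The part of stroma or germ cell content in the values of Cdh1, Cdh11, Pcdh7, Pcdh10 and the Pcdhb genes was not tested. Among other lists, endothelial markers, which bear on Pcdh12, had 5 of 8 means higher and sums of 2.39 to 5.62 in WT and 3.43 to 7.01 in Glis3KO2. Markers of epididymal and mesonephric duct, a list that itself holds Cdh16, had 4 of 6 higher and sums of 2.04 to 3.13 and 1.87 to 3.50. Macrophage markers had 7 of 8 higher, Sertoli cell markers 2 of 9 and Leydig cell markers 1 of 5.

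**Figure D4:**
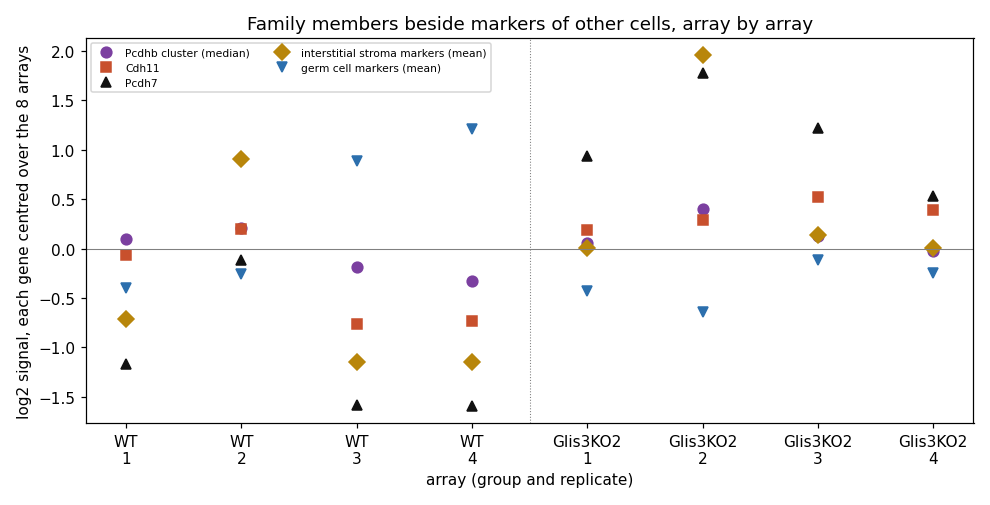
Log2 signal with each gene centred over the 8 arrays (vertical axis), by array (horizontal axis, WT left and Glis3KO2 right of the dotted line), for Pcdh7, Cdh11, the median of the Pcdhb genes and the means of the stroma and germ cell marker lists. WT replicates 3 and 4 are low for stroma markers, Cdh11 and Pcdhb genes and high for germ cell markers. WT replicate 2 has a high stroma mean with a Pcdh7 value below all Glis3KO2 arrays at the probe shown, A_51_P260740, but not at the other Pcdh7 probes.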

How the data were processed

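RNA was amplified (NuGEN Ovation Pico WTA), labelled with Cy3 and hybridised to 1-colour Agilent arrays, per the labels' protocols. The deposited scanner files give linear intensity per spot, already background-subtracted; their software was Feature Extraction 12.0.0.7, as the file headers state. The deposited value table equalled that processed intensity on 100% of spots. Between 73 and 109 spots per array with an outlier flag were left out, probes were named through RefSeq accessions (28223 of 41174 matched 1 gene, GRCm38.p6), and the kept probe of highest mean stood for its gene (36429 probes, 17513 genes). Differences and their errors come from limma 3.58.1 in R 4.3.3 (lmFit, eBayes, genotype alone, Benjamini-Hochberg over all genes), which was tested on simulated data. Nothing says that samples are separate animals, so p-values cover only the variation among these 8 samples, which may be technical. The members, lists and named genes (the largest differences, non-overlapping groups, probes of opposite sign, genes never called in 1 genotype) were chosen with earlier results of these data known.

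Arrays lay on 2 slides, replicates 1 and 3 on slide 1 and replicates 2 and 4 on slide 2. WT arrays held positions 1 and 2 and Glis3KO2 arrays positions 3 and 4, so position and genotype cannot be told apart. Deviations of same-numbered arrays correlated at r = 0.16, 0.34, 0.18 and 0.13 across genes, all over 0.1, and the replicate number was therefore also used as a block. Other alternatives were normexp (offset 50, on the median spot signal, since the mean signal is not among the columns), quantile and median scaling, filters, probe means, slide, array weights and each array left out. The number of arrays limits the precision.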

Additional observations from a re-analysis of the deposited data

Results flagged for a closer look

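In Pcdh10, WT replicate 1 read -3.69, and its gap to the other WT arrays (-3.35, -3.28 and -3.35) was 0.831 of the whole WT range, just over the 95% value of Dixon's test for groups of 4. In Pcdh19, Glis3KO2 replicate 4 read -0.72 where the other knockout arrays read -1.86, -2.07 and -1.84. Chance marks about 1 group in 20 this way, and 2 of 30 groups were marked among the 15 members examined.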

How the results depend on the processing

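At an unadjusted p under 0.05 (limma), 1208 genes and 2328 probes were counted. With the replicate number as a block there were 1877 genes, with array weights 1834 genes and 4114 probes, and without WT replicates 3 and 4 (chosen after seeing the data) 770 genes. Leaving out 1 array gave 663 to 2408 genes and 1384 to 4244 probes, the lowest without WT replicate 3 and the highest without WT replicate 2. Of the genes counted, 31.2% were higher in Glis3KO2, and 43.4% with normexp and quantile normalization. At an adjusted p under 0.05, 1 gene was counted with quantile normalization of log2 signal and 1 probe without Glis3KO2 replicate 3, and 0 in all other settings. Higher means in the family fell from 30 to 14 and lower means rose to 42 with normexp and the 75th percentile, where 5 members did not overlap (7.42% of all genes) and 6 Pcdhb genes were higher. Without WT replicates 3 and 4 these were 4 (11.1% of all genes) and 8. Members without overlap numbered 2 with normexp and quantile normalization (3.4% of all genes), 2 without the filter on dim probes (3.64%), 0 with the mean over probes (3.47%), and 1 to 9 with 1 array left out (4.51% to 14.2% of all genes, the 9 and the 14.2% without WT replicate 2). Pcdh7 was at 1.52 with normexp under both scalings and at 1.22 with probe means, and Cdh1 at -0.22 with normexp and quantile normalization. Neither changed sign in any setting. Each replicate number and each slide held as many WT as Glis3KO2 arrays. A block for either therefore cannot move a difference where every array has a value. The differences of the 27 named members and list genes stayed as they were for that reason, which says nothing of their stability. The cause of the changes between the other settings was not tested, and the low signal over background of Cdh1, Cdh10, Cdh17 and Pcdh17 limits what can be said of these genes.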
